A study of Mus musculus with 21 samples.

Results

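Transcripts of lysosomal enzymes, lysosomal membrane proteins and the vacuolar proton pump were followed in mouse bone-marrow-derived macrophages (BMDMs), macrophages grown in culture from marrow precursors. The members are 44 genes taken by symbol from a table of 34573 genes: 16 genes of the proton pump, and 28 lysosomal genes made up of 22 enzymes, activators and related luminal proteins, 5 membrane proteins and the transcription factor gene Tfeb. Bulk RNA sequencing covered 21 libraries. All cells came from C57bl/6 mice aged 12 weeks, and marrow was grown for 6 days in L929 medium, which supplies M-CSF. Control cells (3 libraries) received nothing further. DMM cells (4 libraries) received dimethyl malonate, which cells convert to malonate, a blocker of succinate dehydrogenase, and succinate cells (4 libraries) received that enzyme's substrate. Either pretreatment lasted 3 h. Lipopolysaccharide (LPS), a bacterial surface component that activates macrophages, was given for 4 h alone (2 libraries), after DMM (2) and after succinate (1), and for 48 h alone (2 by label), after DMM (2) and after succinate (1). The labels state no dose of any agent. Replicates are labelled A or B in the set given LPS for 4 h and 1 or 2 in the set given it for 48 h. Libraries without LPS carry labels of both sets: A, B and 2 for control, and A, B, 1 and 2 for DMM and for succinate.

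Lysosomes break down proteins, sugars and lipids with acid hydrolases that work at low pH. The vacuolar ATPase makes that pH: its cytosolic V1 part splits ATP, and its membrane V0 part carries protons inward. In macrophages the same compartment digests engulfed material and trims antigens, and the transcription factor TFEB and its relatives drive many of its genes through a short promoter motif built around CACGTG.

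That motif is shown first because it is a sequence feature known to be shared by hydrolase and pump genes. Promoter windows of 300 bases (250 before to 50 after the start, RefSeq on GRCm38.p6) were found for 36 of the 44 members, 25 lysosomal and 11 pump genes. The windows were searched for CACGTG and for the longer TCACGTGA, which contains it; both read the same on either strand. CACGTG was present in 13 of the 36 members (36.1%) and in 8.09% of all 27025 genes with a window. TCACGTGA was present in 7 of the 36 (19.4%) and in 1.12% of all genes. The 7 were Ctsd, Ctsa, Gla, Mcoln1, Atp6v0d1, Atp6v0e and Atp6v1a, and Gla held it in 2 places. The stretches below are those that lie before the start, on the gene's own strand, with the motif in capitals.
Ctsd, chr7:142387899-142387946, minus strand: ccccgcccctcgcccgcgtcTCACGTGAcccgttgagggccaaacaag
Ctsa, chr2:164833740-164833772, plus strand: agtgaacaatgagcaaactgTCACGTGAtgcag
Gla, chrX:134601173-134601220, minus strand: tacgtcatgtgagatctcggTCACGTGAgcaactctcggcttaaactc
Gla, chrX:134601206-134601253, minus strand: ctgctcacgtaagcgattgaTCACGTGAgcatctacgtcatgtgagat
Mcoln1, chr8:3500453-3500500, plus strand: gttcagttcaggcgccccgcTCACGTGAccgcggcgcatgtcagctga
Atp6v1a, chr16:44139364-44139411, minus strand: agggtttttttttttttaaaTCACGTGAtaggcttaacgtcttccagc
These windows describe letters, not binding, and no match outside them was looked for.

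Total counts ran from 662186 to 1546867 per library. The library labelled LPS 48 h replicate 1 stood apart from its label and was kept out of the reported tests, entering only the alternative with 21 libraries: over the tested genes its counts lay close to those of DMM 2 (chi-square per degree of freedom 1.22; the next closest, DMM 4, 4.61), and over 43 members its median absolute log2 difference from DMM 2 was 0.058, against 0.637 from LPS 48 h 2. LPS 48 h alone therefore rests on 1 library here, as do both succinate then LPS groups, and the scatter of each was taken from the groups with replicates. Whether replicates are separate cultures or animals is not stated, so p-values reflect only the scatter among these libraries. The culture's macrophage markers summed to 55039 to 93135 CPM without LPS and to 79834 to 177790 CPM with it. In a bulk sample, fewer cells of a type and less RNA per cell cannot be told apart.

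The members took up a large part of the control transcriptome. The 28 lysosomal genes held 9.93% to 10.1% of all counts in the 3 control libraries, and Ctsb and Ctsd, the genes of cathepsins B and D, made up 59.8% to 61.9% of that. The 16 pump genes held 0.507% to 0.6599%. Per length, in CPM per kilobase of exon (CPM is a count scaled to library size, with TMM factors), the control mean was highest for Ctsd at 10422 ± 1356 (SD, n = 3), followed by Ctsb at 5105 ± 479 and the cathepsin S gene Ctss at 4842 ± 1315. The spreads of Ctsb and Ctss overlap, while that of Ctsd does not reach them. The highest pump gene was the V1 subunit Atp6v1f at 337 ± 50.7 CPM per kilobase, and the lowest lysosomal gene was Tfeb at 0.260 ± 0.227. Tfeb held at most 6.58 CPM in any library, did not pass the filter on low counts, and is given no test, which leaves 27 lysosomal and 16 pump genes tested among 6812 genes. The exons of 13 members overlap another gene, among them Ctsd, Ctsb, Ctsa and Ctsl, and pseudogenes named for Cd63 and Atp6v0c exist, so reads of these genes may be shared.

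**Figure D1:**
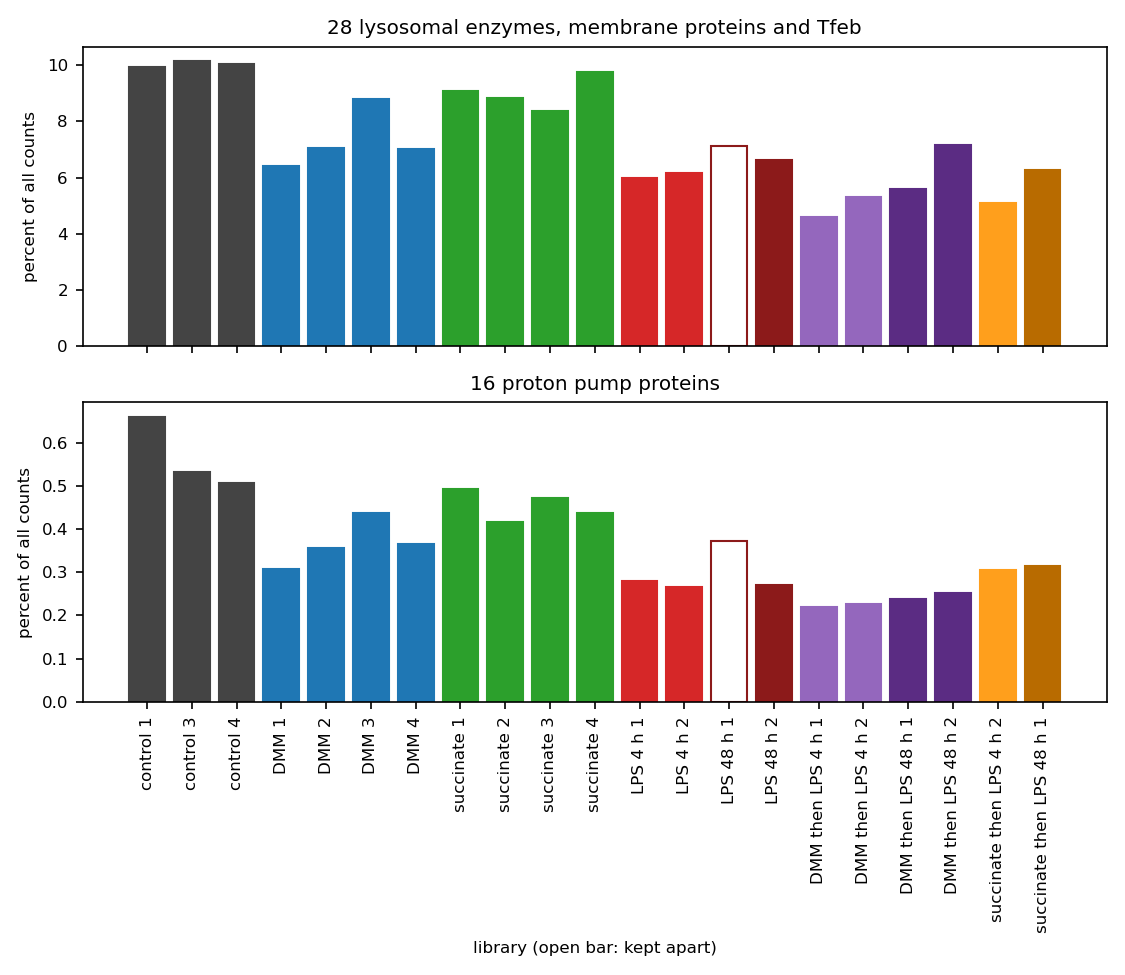
Percent of all counts held by the 28 lysosomal genes (upper panel) and the 16 proton pump genes (lower panel) in each of the 21 libraries, 1 bar per library, coloured by group, with the library kept apart drawn open. The 3 controls stand highest in both panels, and the DMM then LPS libraries hold the lowest pump shares, 0.220% to 0.251%.

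The summed shares differed between groups. DMM libraries held 6.41% to 8.80% lysosomal counts and succinate libraries 8.38% to 9.75%, so that every library of both groups lay below every control. The 2 LPS 4 h libraries held 5.97% and 6.15%, and DMM then LPS 4 h held 4.61% and 5.30%. Pump shares were 0.308% to 0.438% in DMM, 0.415% to 0.493% in succinate, 0.266% and 0.279% in LPS 4 h and 0.220% and 0.226% in DMM then LPS 4 h. At 48 h, DMM then LPS held 5.60% and 7.14% lysosomal counts, of which the second was above the 6.64% of LPS alone and above 3 of the 4 DMM libraries. Succinate then LPS held 5.11% at 4 h and 6.28% at 48 h, with pump shares of 0.305% and 0.315% that lay above those of LPS alone. Shares of a library move with every other abundant transcript, so the tests below use scaled counts.

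**Figure D2:**
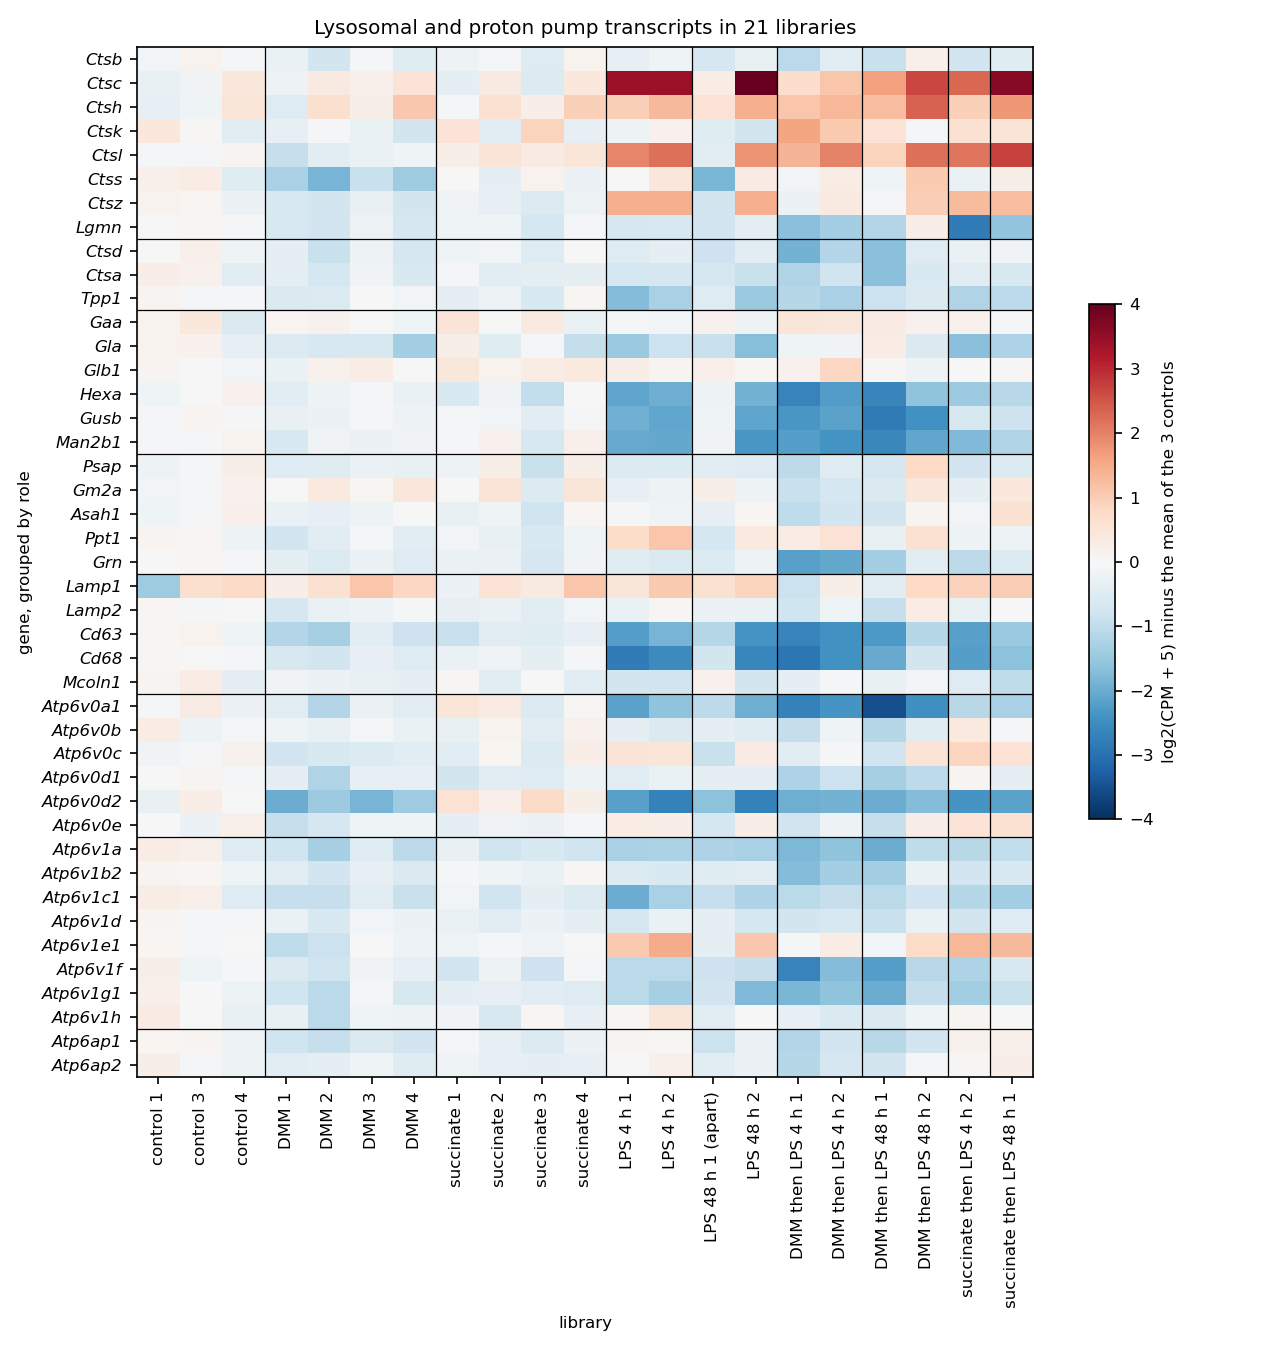
Level of the 43 tested members (rows, grouped by role) in the 21 libraries (columns), as log2(CPM + 5) minus the mean of the 3 controls. Red is above and blue below the controls; Ctsc and Ctsl are red and Gusb, Man2b1, Cd63, Cd68 and Atp6v0a1 blue in the LPS libraries, apart from the library labelled LPS 48 h 1.

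With 4 h of LPS, members moved in both directions. Of 27 lysosomal genes, 5 rose and 8 fell, and of 16 pump genes, 1 rose and 6 fell (edgeR's quasi-likelihood test, Benjamini-Hochberg adjusted p under 0.05). Together that is 20 of 43 members (46.5%), against 27.9% of all genes tested (15.4% higher, 12.5% lower). The rises were in 4 cysteine cathepsins, Ppt1 and Atp6v1e1, and the falls included 4 of 6 glycosidases, 3 membrane proteins and 6 V1 and V0 subunits. The median log2 fold change was -0.28 for lysosomal and -0.50 for pump genes, against -0.07 for all genes. Without TMM's composition factor the all-gene median moved to -0.64 and the members called to 4 higher and 27 lower, with medians of -0.87 and -1.09; over all genes the calls moved from 1048 higher and 851 lower to 578 and 1726.

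Among the cysteine cathepsins, Ctsc, the gene of cathepsin C, which activates granule serine proteases, lay at 275, 309 and 463 CPM in controls and at 3744 and 3746 CPM after 4 h of LPS. The groups are far apart, and the log2 fold change was 3.42 ± 0.38 (SE; adjusted p = 1.61e-08, edgeR). Ctsl, the gene of the endopeptidase cathepsin L, was at 715, 702 and 793 CPM in controls and 2861 and 3426 CPM with LPS, a log2 change of 2.09 ± 0.35. The carboxypeptidase gene Ctsz rose from 2188 to 2865 CPM to 7129 and 7009 CPM, by 1.45 ± 0.34, and the aminopeptidase gene Ctsh by 1.14 ± 0.40. The Ctsh call was lost without either LPS 4 h library, without control 1 or 3, with DESeq2 and without the composition factor. Of the other cysteine proteases, Ctsb (-0.25 ± 0.39), Ctss (0.21 ± 0.39), Ctsk (-0.14 ± 0.94) and the asparaginyl endopeptidase Lgmn (-0.65 ± 0.36) were not called. Ctsk, known as the collagenase of osteoclasts, held at most 6.20 CPM in a control.

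The aspartic and serine proteases gave 1 call of 3. Tpp1, the gene of tripeptidyl peptidase 1, fell from 119 to 132 CPM to 33.5 and 46.8 CPM, by 1.62 on the log2 scale (SE 0.29). Ctsd (-0.44 ± 0.39) and the carboxypeptidase Ctsa (-0.72 ± 0.35), which also protects lysosomal sialidase and galactosidase, were not called, although both LPS 4 h libraries lay below all controls in each.

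Glycosidases moved lower as far as they were called. Gusb, the gene of beta-glucuronidase, was at 760, 840 and 740 CPM in controls and at 203 and 181 CPM after LPS (-2.02 ± 0.30). Man2b1, the lysosomal alpha-mannosidase, was at 810, 812 and 938 CPM and at 206 and 203 CPM (-2.06 ± 0.33), and Hexa, a subunit of beta-hexosaminidase, at 1999, 2247 and 2531 CPM and at 523 and 575 CPM (-2.04 ± 0.37). In all 3 genes both LPS libraries lay far below the lowest control. The alpha-galactosidase gene Gla fell by 1.39 (SE 0.41), a call lost without LPS 4 h replicate 1, and Gaa (-0.13 ± 0.29), the acid alpha-glucosidase, and Glb1 (0.21 ± 0.26), the beta-galactosidase, were not called.

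Lipid-degrading enzymes and their helpers held nearer to control levels. Ppt1, the palmitoyl-protein thioesterase, rose by 0.94 ± 0.29 (lost without the composition factor or without LPS 4 h replicate 2). Psap, the saposin precursor (-0.55 ± 0.40), Gm2a, the ganglioside activator (-0.28 ± 0.33), Asah1, acid ceramidase (-0.13 ± 0.31), and Grn, progranulin (-0.53 ± 0.34), were not called. Their 95% intervals reach at most 1.36 on the log2 scale in size, that of Psap.

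Of the membrane proteins, Cd68, a heavily glycosylated macrophage protein, was at 2052, 2012 and 1872 CPM in controls and at 282 and 333 CPM after LPS (-2.69 ± 0.37, adjusted p = 1.07e-06, edgeR). Cd63, a tetraspanin of late endosomes, was at 876, 925 and 744 CPM and at 180 and 230 CPM (-2.05 ± 0.36). Both were separated completely between the groups. Mcoln1, the lysosomal calcium channel, fell by 0.92 (SE 0.32), a call lost under 7 of 27 alternatives. Lamp1 (0.51 ± 0.51) and Lamp2 (-0.09 ± 0.34), the main structural glycoproteins, were not called, and for Lamp1 the controls disagreed, with 625 CPM in control 1 and 2616 and 2852 CPM in the others.

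The pump followed no single direction. In the membrane part, Atp6v0a1, the subunit that places the pump, was at 111, 147 and 99.1 CPM in controls and at 22.7 and 34.9 CPM with LPS (-2.04 ± 0.37). Atp6v0d2, the inducible d subunit, held 77 counts over the controls and 2 over LPS 4 h, a ratio of 25.5 (95% counting interval 6.81 to 214). Its partner isoform Atp6v0d1 (-0.38 ± 0.29) and Atp6v0b, Atp6v0c and Atp6v0e, which range from -0.49 to 0.51, were not called. In the V1 part, the catalytic subunit Atp6v1a fell by 1.33 (SE 0.36), Atp6v1c1 by 1.71 (SE 0.32), Atp6v1g1 by 1.24 (SE 0.32) and Atp6v1f by 1.12 (SE 0.35), while the stalk subunit Atp6v1e1 rose by 1.30 ± 0.30. Atp6v1e1 was at 114, 103 and 108 CPM in controls and at 227 and 309 CPM with LPS, and its call held under every alternative tried. Atp6v1b2, Atp6v1d and Atp6v1h and the accessory proteins Atp6ap1 and Atp6ap2 lay between -0.60 and 0.29 and were not called. Calls of Atp6v1a and Atp6v1f were lost without either LPS 4 h library, that of Atp6v1f also without control 1, and that of Atp6v1g1 without LPS 4 h replicate 2.

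**Figure D3:**
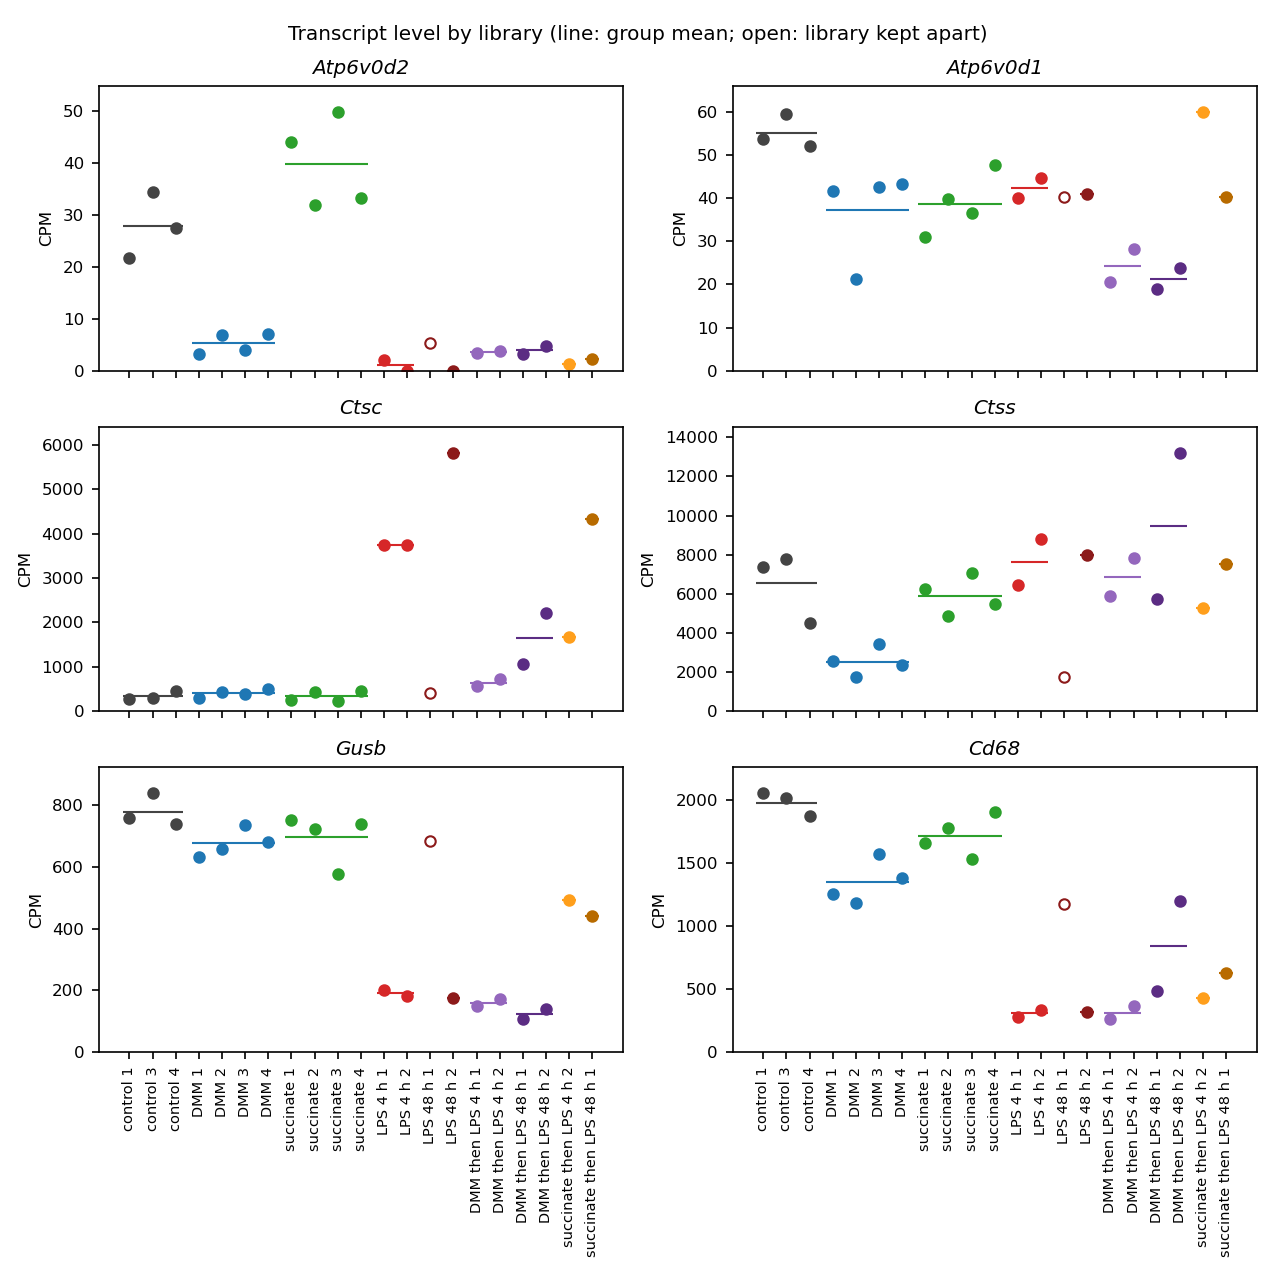
CPM of 6 members by library, each panel starting at 0, with group means as lines and the library kept apart as an open point. Atp6v0d2 is low in every DMM and LPS library, Ctsc is high with LPS and lower when DMM came first, Ctss is lowest in DMM, and Gusb and Cd68 are below every control in all LPS libraries.

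After 48 h of LPS, in 1 library, cathepsin genes were again among the members called higher. Of 43 members, 5 rose and 12 fell (39.5%), against 20.8% of all genes called (12.5% higher, 8.29% lower). Ctsc stood at 5822 CPM (4.06 ± 0.43) and Ctsl at 2591 CPM (1.81 ± 0.42), while Gusb (175 CPM, -2.16 ± 0.41), Man2b1 (166 CPM, -2.36 ± 0.45), Cd68 (317 CPM, -2.64 ± 0.50) and Cd63 (160 CPM, -2.40 ± 0.49) lay below all controls. Ctsz, Ctsh and Atp6v1e1 were the other members called higher, and Tpp1, Gla, Hexa, Atp6v0a1, Atp6v1a, Atp6v1c1 and Atp6v1g1 were called lower. Atp6v0d2 held no count and was at least 9.42-fold lower (floor of 3 counts over the group). The same 3 controls serve both LPS comparisons, so the 4 h and 48 h values are set side by side and not counted as independent. With the library labelled LPS 48 h 1 included, 8 members were called. Of the 17 calls, 13 remained in the same direction with the replicate block and 13 with odd and even unstimulated numbers as separate groups. Of 26 alternatives, the Ctsh call was lost under 7, Atp6v1e1 under 6, Atp6v1a under 4 (among them without control 1 or 3), Atp6v1c1 under 2 (among them without control 1), Ctsz under 2 and Gla under 1, both with the block.

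A comparison that shares no library with LPS 4 h against control is DMM then LPS 48 h against DMM. There 6 members rose and 7 fell (30.2%, against 30.8% of all genes, of which 15.4% higher and 15.4% lower), a share near that of all genes. Of these 13, 11 had moved the same way with LPS 4 h (84.6% of the 13, and 55.0% of the 20 called at 4 h), and none the opposite way. Over all genes, 1219 were called in the same direction in both (58.1% of 2098 and 64.2% of 1899) and 5 in opposite directions. Higher in both were Ctsc, Ctsh, Ctsl, Ctsz and Atp6v1e1, and lower in both were Hexa, Gusb, Man2b1, Atp6v0a1, Atp6v1f and Atp6v1g1. Gusb was at 633 to 738 CPM in DMM and at 106 and 141 CPM in DMM then LPS 48 h (-2.46 ± 0.30), and Atp6v0a1 at 49.8 to 96.8 and at 5.74 and 17.1 CPM (-2.82 ± 0.41). Both groups were fully apart in each gene. Ctss (1.90 ± 0.36) and Atp6v0d1 (-0.78 ± 0.30) were called here and not with LPS 4 h, a difference that was not tested; the Atp6v0d1 call was lost under 20 of 27 alternatives. Cd68, called with LPS alone, was at -0.68 ± 0.33 here, and its 2 libraries differed (482 and 1197 CPM).

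With DMM and no LPS, Atp6v0d2 and Ctss fell and the other pump genes all lay below control without a call. These are 2 of 43 members, against 0.558% of all genes called (0.323% higher, 0.235% lower). The 16 pump genes were all below 0 (median -0.56), and so were 22 of 27 lysosomal genes (median -0.36). Of all genes 48.2% were below 0 (median 0.02). Of the pump genes 9 had an unadjusted p under 0.05 (56.2%), of the lysosomal genes 4 (14.8%) and of all genes 11.8%. All 16 pump genes stayed below 0 under every alternative. Control has no library labelled 1, while DMM has A, B, 1 and 2, so the pooled comparison is not balanced by set. The same holds for succinate against control.

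Atp6v0d2 was at 21.7, 34.4 and 27.6 CPM in controls, at 3.21, 6.79, 3.95 and 7.04 CPM in DMM and at 44.02, 32.0, 49.9 and 33.3 CPM in succinate. The 4 DMM values rest on 2, 9, 4 and 8 counts. No DMM library came near a control or succinate library, while the succinate and control ranges met. It fell 4.91-fold against controls (-2.30 ± 0.35, adjusted p = 0.0022, edgeR) and 7.07-fold against succinate (-2.82 ± 0.32, adjusted p = 3.5e-06, edgeR). The call against controls was lost with 21 libraries (adjusted p = 0.099, edgeR) and the call against succinate under no alternative. With DESeq2, 1 of the 2 members called in DMM against control was also called. Per length, Atp6v0d2 made up 21.05% to 27.7% of the 2 d subunits' sum in controls, 31.6% to 48.4% in succinate, 4.83% to 17.5% in DMM and 0% to 11.7% with any LPS. The upper DMM value is that of DMM 2, where Atp6v0d1 was low.

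Ctss, the gene of the protease that trims the class II invariant chain, was at 7399, 7801 and 4528 CPM in controls and at 2588, 1753, 3435 and 2371 CPM in DMM. The groups did not overlap, and the change was -1.37 ± 0.32 (adjusted p = 0.039, edgeR), a call lost under 11 of 27 alternatives. Next by p were Atp6v1c1 (-0.84 ± 0.24), which overlapped with controls, and Atp6v1a (-0.94 ± 0.28), which did not; neither was called. Atp6v1a was at 1702, 1578 and 965 CPM in controls and at 795, 543, 955 and 660 CPM in DMM, so control 4 and DMM 3 nearly met. The B cell marker sum, which is Ighm in the main, was 71.3 to 124 CPM in controls, 117 to 167 CPM in DMM and 0 to 2.16 CPM with LPS, with Cd79a and Pax5 at 0 throughout; its part in any result was not tested.

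Succinate without LPS left no member called with edgeR, against 0% of all genes; 2 members and 363 genes had an unadjusted p under 0.05, and DESeq2 called no member and 2 genes. The 2 members were Atp6v1a (-0.65 ± 0.28) and Atp6v0d1 (-0.50 ± 0.24). By p the next were Atp6v1c1 (-0.49 ± 0.24) and Atp6v0d2 (0.53 ± 0.27, 95% interval -0.03 to 1.08). Pump genes below 0 numbered 14 of 16 (median -0.29) and lysosomal genes 20 of 27 (median -0.18), against 46.8% of all genes (median 0.03). DMM and succinate share the controls here, so the direct comparison between them carries the difference: 1 member, Atp6v0d2, was called, against 0.22% of all genes (0.103% higher, 0.117% lower). Ctss (-1.22 ± 0.31), Ctsl (-0.83 ± 0.28) and Atp6v0a1 (-0.69 ± 0.25) followed and were not called.

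**Figure D4:**
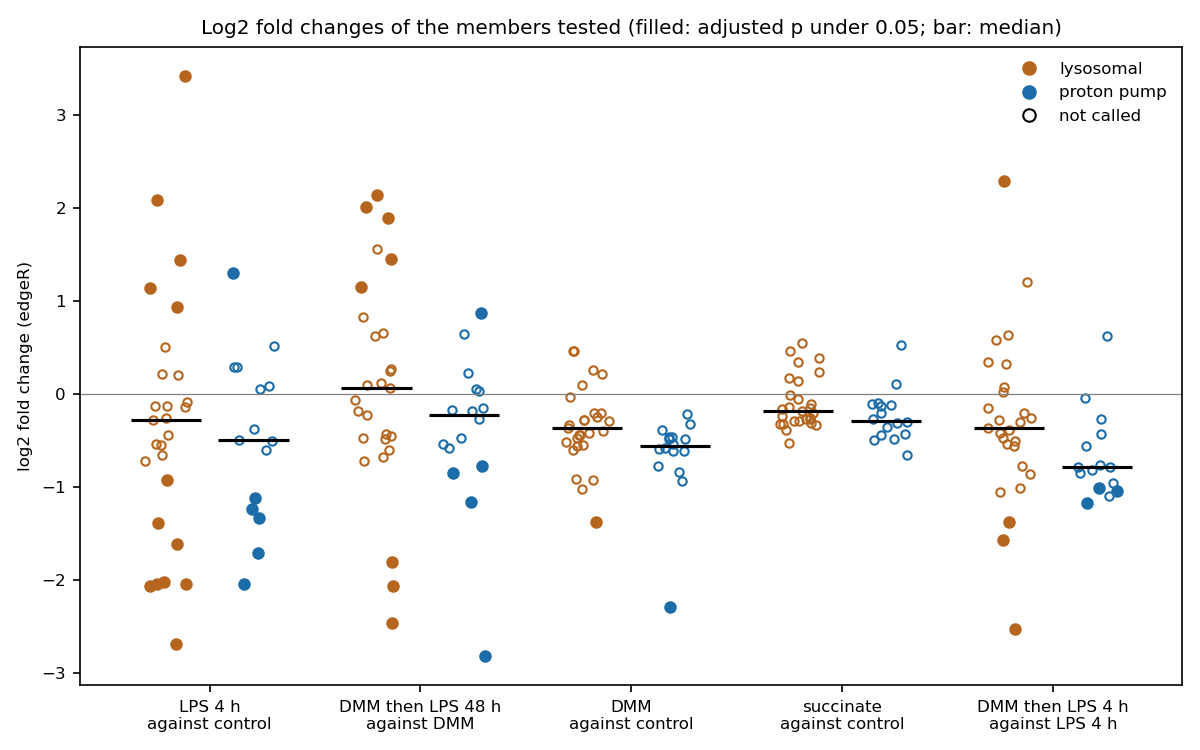
Log2 fold changes (vertical axis) of lysosomal (brown) and proton pump (blue) genes in 5 comparisons, with filled points at adjusted p under 0.05 and bars at medians. Atp6v0d2 is left off where an arm held 3 counts or fewer, but counted in the median; all pump points for DMM against control lie below 0.

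With DMM before 4 h of LPS, set against LPS alone, Ctsc, Grn, Ctsz and 3 pump or accessory genes fell and Ctsk rose. These are 7 of 43 members (16.3%), a share near the 14% of all genes called (3.54% higher, 10.5% lower). Pump genes below 0 numbered 14 of 16 (median -0.79) and lysosomal genes 19 of 27 (median -0.36), against 47.9% of all genes (median 0.04). Without the composition factor the all-gene median was 0.49, the members called were 4 higher and 3 lower, the calls over all genes moved from 241 higher and 715 lower to 477 and 400, the pump median stayed negative at -0.36 and the lysosomal median turned to 0.05. TMM factors were 1.15 and 0.882 in the DMM then LPS 4 h libraries and 0.776 and 0.717 in the LPS 4 h libraries. Cell type markers moved in this comparison too. Of 10 macrophage markers 4 fell and none rose, among them Itgam (-2.04 ± 0.43) and Tyrobp (-1.90 ± 0.43), and their summed level was 128142 and 148128 CPM with LPS alone and 87270 and 130024 CPM after DMM. The fibroblast marker Dcn rose (2.34 ± 0.51), with the sum of 8 such markers at 18.4 and 6.53 CPM and at 41.5 and 34.8 CPM and Thy1 at 0 in all 4 libraries. Of 2 neutrophil markers tested, S100a8 rose (2.26 ± 0.32), while Csf3r lay below 0 and was not called (median of the 2, 0.62). The sum of 10 such markers was 92.9 and 130.7 CPM with LPS alone and 233 and 347 CPM after DMM. The part of these markers in the members' changes was not tested.

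Ctsc was at 3744 and 3746 CPM with LPS alone, at 561 and 736 CPM after DMM and LPS and at 1673 CPM after succinate and LPS. DMM then LPS therefore lay nearest to the unstimulated range, though still above every unstimulated library, whose highest was 501 CPM. The change with DMM was -2.53 ± 0.43 (adjusted p = 0.000127, edgeR) and was called under every alternative; that with succinate, -1.16 ± 0.52, was not called. Grn was at 3306 and 3122 CPM with LPS and at 1036 and 1131 CPM after DMM (-1.57 ± 0.37), a call lost only without DMM then LPS 4 h replicate 1. Ctsz was at 7129 and 7009 CPM and at 2173 and 3271 CPM (-1.38 ± 0.39). In the pump, Atp6v1e1 was at 227 and 309 CPM and at 104 and 133 CPM (-1.18 ± 0.33), close to its control level, and the accessory genes Atp6ap1 (-1.04 ± 0.31) and Atp6ap2 (-1.01 ± 0.32), of which the second is the prorenin receptor, were the other two that fell. Ctsk rose, from 2.16 and 4.36 to 19.9 and 12.2 CPM (2.30 ± 0.77), a call lost under 9 of 27 alternatives. Without the composition factor the Atp6v1e1, Atp6ap1 and Atp6ap2 calls were lost. Leaving out DMM then LPS 4 h replicate 1 left 1 member called, and leaving out either LPS 4 h library left 3 or 2. Leaving out either DMM then LPS 48 h library gave 12, and the replicate block 11.

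The difference between DMM's effect with and without LPS at 4 h was itself tested. Of 43 members 4 passed, against 5.43% of all genes (0.94% higher, 4.49% lower). Ctsc had an interaction of -2.75 ± 0.53 (adjusted p = 0.00165, edgeR), and without LPS its DMM libraries (293 to 501 CPM) overlapped the controls. Gla had 2.13 ± 0.53: it was at 30.6 to 45.1 CPM in controls and 12.3 to 25.7 CPM in DMM, but at 10.8 and 19.6 CPM in LPS and 34.7 and 35.7 CPM in DMM then LPS. The Gla call was lost without DMM then LPS 4 h replicate 1 or LPS 4 h replicate 1. Atp6v1c1 had 1.46 ± 0.41, at 46.4 and 77.3 CPM with LPS and 89.9 and 102 CPM after DMM and LPS, a call lost under 8 of 27 alternatives. With 21 libraries none of the 4 was called. Atp6v0d2 also passed, but rests on 2 counts in LPS 4 h against 10 in DMM then LPS 4 h, a ratio of 3.27 with a counting interval of 0.697 to 30.7.

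At 48 h the DMM effect under LPS left no member called with edgeR (0.807% of all genes, of which 0.147% higher and 0.661% lower); 8 members had an unadjusted p under 0.05, and DESeq2 called 2. Ctsc was at 5822 CPM in the single LPS library and at 1074 and 2209 CPM after DMM (-1.83 ± 0.48, adjusted p = 0.0534, edgeR). Gla was at 8.79 CPM and at 49.2 and 24.7 CPM (2.07 ± 0.60), and Cd68 at 317 CPM and at 482 and 1197 CPM (1.41 ± 0.48). The 2 DMM then LPS libraries lay on the same side of LPS alone in all 3 genes and far from each other. Atp6v0d2 held no count in LPS 48 h and 9 counts over the 2 DMM then LPS libraries. Against a floor of 3 counts that is a ratio of 1.35, without an interval, and no rise can be read from it. Between DMM then LPS at 48 h and at 4 h no member was called with edgeR (1.17% of all genes, of which 0.837% higher and 0.338% lower); 10 had an unadjusted p under 0.05 and DESeq2 called 4. Cd68 (1.43 ± 0.38), Grn (1.26 ± 0.37), Ctsc (1.34 ± 0.41) and Lgmn (1.24 ± 0.40) had the smallest p.

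With succinate before 4 h of LPS, in 1 library whose own spread was not measured, 1 member was called lower, against 1.03% of all genes (0.528% higher, 0.499% lower). Lgmn was at 1682 and 1725 CPM with LPS alone and at 377 CPM in the succinate library (-2.18 ± 0.54, adjusted p = 0.0355, edgeR), a call lost under 7 of 26 alternatives. Gusb was at 494 CPM, above 203 and 181 CPM with LPS alone (1.36 ± 0.37), and Ppt1 (-1.15 ± 0.42) and Ctsc (-1.16 ± 0.52) were lower; none of these was called. At 48 h no member was called with edgeR (0.558% of all genes, of which 0.338% higher and 0.22% lower); 4 had an unadjusted p under 0.05 and DESeq2 called 1. Gusb was at 441 CPM against 175 CPM (1.33 ± 0.45), Man2b1 at 368 against 166 CPM (1.15 ± 0.49) and Lgmn at 886 against 2053 CPM (-1.21 ± 0.56). At 48 h the succinate library is replicate 1 and the LPS library kept is replicate 2. Treatment and replicate number therefore cannot be told apart in this comparison. Ctsk held no count in LPS alone and 6 counts after succinate. Against a floor of 3 counts that is a ratio of 2.35, without an interval. The neutrophil marker S100a8 was at 567 and 81.7 CPM in the 2 succinate then LPS libraries, at 7.82 to 324 CPM in the other stimulated libraries and at 0 without LPS, with Ly6g, Ltf and Retnlg at 0 throughout. Against LPS alone S100a8 was called higher at both times (3.37 at each). Csf3r, the other neutrophil marker tested, lay below 0 and was not called (median of the 2 markers, 0.78 at 4 h and 0.67 at 48 h). Pf4, a megakaryocyte gene, was at 203 and 304 CPM in the 2 succinate then LPS libraries and at most 13.1 CPM in the other stimulated ones and 68.7 CPM without LPS. Against LPS alone Pf4 was not called at either time (log2 change 4.14 at 4 h and 5.26 at 48 h). The part of these markers in the results was not tested.

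Other genes of the pathway, from lists chosen with earlier results of these data known, moved in both directions with LPS 4 h, where 27.9% of all genes were called. Of 35 other lysosomal hydrolases tested, 8 rose and 13 fell (60%), among them the acid phosphatase Acp2 (3.16 ± 0.31) and Smpdl3a (2.63 ± 0.31) higher and the acid lipase Lipa (-2.82 ± 0.39) and phospholipase Pla2g15 (-2.25 ± 0.36) lower. Of 29 membrane and transport proteins 5 rose and 9 fell (48.3%), with the peptide transporter Slc15a3 (3.49 ± 0.33) and the metal transporter Slc11a1 (3.36 ± 0.48) higher and Laptm5 (-2.16 ± 0.37) and Mfsd12 (-2.96 ± 0.48) lower. Of 8 further pump genes 1 rose and 2 fell (37.5%), and Wdr7, an assembly factor, fell by 2.64 (SE 0.41). Of 17 TFEB-family and lysosomal mTORC1 genes 1 rose, Tfe3 (1.16 ± 0.26), and 4 fell, among them Flcn (-1.68 ± 0.35), together 29.4%. Of 28 autophagy genes 2 rose and 5 fell (25%), and of 4 cathepsin inhibitors 1 fell (25%), Serpinb6a (-2.55 ± 0.35). The last 3 lists were called at shares near that of all genes.

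With DMM alone, 0.558% of all genes were called. Of the 35 other hydrolases 1 rose, the carboxypeptidase Prcp (1.33 ± 0.29), and 1 fell, the phospholipase D family member Pld3 (-1.43 ± 0.27), together 5.71%. None of the other lists had a call, which says little for lists this short at that all-gene share. With DMM before LPS at 4 h, 5 of those hydrolases fell and none rose (14.3%), a share near the 14% of all genes called. Rnaset2b was at 56.1 and 59.9 CPM with LPS and at 2.84 and 7.52 CPM after DMM (-3.59 ± 0.48), and Acp2 at 228 and 228 CPM and at 39.3 and 46.1 CPM (-2.42 ± 0.34). Of 8 further pump genes 1 fell (12.5%), Tcirg1, an alternative a subunit, by 1.00 (SE 0.32). Of 29 membrane and transport proteins 1 rose, Ctns (2.01 ± 0.66), and 2 fell (together 10.3%). Of 17 TFEB-family and lysosomal mTORC1 genes 1 fell (5.88%), and of 28 autophagy genes 2 fell (7.14%). Of 4 cathepsin inhibitors the cystatins Cst3 (-1.54 ± 0.41) and Cstb (-1.60 ± 0.44) fell (50%).

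Members with TCACGTGA in the window had a median log2 change of -0.72 with LPS 4 h (7 genes, none higher and 3 lower: Gla, Mcoln1 and Atp6v1a), and the 28 tested members without it -0.21 (5 higher, 8 lower). With DMM alone the medians were -0.52 and -0.41. These are descriptions of few genes, without a test.

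The genes whose log2 CPM followed Atp6v0d2 most closely over the 20 libraries were Aplp2 (Pearson r 0.898), Mfge8 (0.888), Klc4 (0.882), Tcp11l2 (0.881), Plxnc1 (0.881) and Syngr1 (0.878). The 20 points share the split between stimulated and unstimulated cells, with Aplp2 at a mean of 251 CPM in controls, 187 CPM in DMM and 71.3 to 140 CPM with LPS.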

How the data were processed

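The deposited values are raw counts of reads for each gene symbol. Libraries were full-length cDNA by a SmartSeq2 variant, with no molecular identifiers named. TopHat2, Bowtie, HTSeq and edgeR appear in the submitters' processing notes, without versions; genome build and strand handling were not given in the sources used here. Members and lists were chosen with earlier results of these data known. Column names give treatment, hours and number for stimulated libraries but no hours for unstimulated ones, so the latter were pooled over both sets.

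Genes were kept if at least 2 libraries reached the CPM that 10 reads give at median depth and the total was 15 or more. They were tested in 1 edgeR (4.0.16) model of 9 groups and 20 libraries (quasi-likelihood, robust, TMM; 11 residual degrees of freedom; common biological coefficient of variation 0.230), with Benjamini-Hochberg adjustment over 6812 genes and a threshold of 0.05. CPM values use TMM factors over those genes. Alternatives were DESeq2 (1.42.0), median-of-ratios factors, no filter, 21 libraries, odd and even unstimulated numbers as separate groups, a replicate block, each library left out, and, added after seeing the data, no composition factor. Ratios with 3 counts or fewer carry 95% intervals that cover counting error only. Where an arm held no count, a floor of 3 counts stood in for it and no interval is given. Named were the called members with the largest change, up to 10 a direction, or the 4 smallest p where under 5 were called; role by role, the remaining members were added as values. The model was tested on simulated data. Exon lengths and overlaps come from GENCODE M21.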

Additional observations from a re-analysis of the deposited data

Results flagged for a closer look

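The DMM and succinate groups hold 4 libraries each, and each of 43 members was examined in both, 86 sets of 4 values in all. In 6 of these sets 1 library lay far from the other 3; chance flags about 1 in 20 such sets. In DMM these were Lgmn in DMM 3 (2343 CPM, the others 1587 to 1708), Gla in DMM 4 (12.3, others 23.4 to 25.7), Atp6v0d1 in DMM 2 (21.1, others 41.7 to 43.1) and Atp6v1c1 in DMM 3 (145.2, others 101 to 105). In succinate they were Ctsa in succinate 1 (1813 CPM, others 1390 to 1455) and Gusb in succinate 3 (578, others 725 to 754). The effect of DMM differed with and without 4 h of LPS, by the interaction test, for Ctsc (-2.75), Gla (2.13), Atp6v1c1 (1.46) and Atp6v0d2 (fitted 3.90, which depends on the fit since LPS 4 h held 2 counts).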

How the results depend on the processing

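Counts of members called moved as follows. With 21 libraries they were 8 for LPS 48 h, 0 for DMM against control, 2 for DMM then LPS 4 h, 0 for succinate then LPS 4 h and 0 for the interaction. Without the composition factor they were 31 for LPS 4 h, 4 for DMM against control, 3 for DMM against succinate, 2 for DMM then LPS 48 h, 2 for succinate then LPS 4 h, 20 for DMM then LPS 48 h against DMM and 4 for DMM then LPS 48 h against 4 h. With DESeq2 they were 2 for DMM against succinate, 2 for DMM then LPS 48 h, 2 for succinate then LPS 4 h, 1 for succinate then LPS 48 h and 4 for DMM then LPS 48 h against 4 h. With no filter they were 2 for DMM against succinate, 2 for DMM then LPS 48 h and 2 for DMM then LPS 48 h against 4 h. With odd and even groups they were 2 for each of these 3 and for succinate then LPS 4 h. With the replicate block they were 2 for DMM against succinate and 11 for DMM then LPS 4 h. For DMM then LPS 48 h the block gave 1, and for succinate then LPS 4 h 2. For DMM then LPS 48 h against 4 h it gave 3. The block used replicate numbers, and the labels do not say what a shared number stands for. At 4 h, the differences between replicates 1 and 2 in LPS and in DMM then LPS correlated at r = 0.0134 over 6812 genes. No such value was computed at 48 h. The causes of the changes in these counts were not tested, apart from the libraries or scaling changed.

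Leaving out 1 library gave 14 to 21 for LPS 4 h, 14 to 17 for LPS 48 h, 1 to 4 for DMM against control, 0 to 0 for succinate, 1 to 2 for DMM against succinate, 1 to 12 for DMM then LPS 4 h, 0 to 3 for DMM then LPS 48 h, 0 to 2 for succinate then LPS 4 h, 0 to 0 for succinate then LPS 48 h, 11 to 18 for DMM then LPS 48 h against DMM, 0 to 8 against 4 h and 1 to 5 for the interaction. The 1 for DMM then LPS 4 h came without its replicate 1, the 3 for DMM then LPS 48 h without its replicate 2 and the 8 against 4 h without DMM then LPS 48 h replicate 1. Reversed were Man2b1 with succinate then LPS 48 h, at -0.34 with 21 libraries, and Lgmn there, at 0.23 with the replicate block.

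All-gene counts differed by over 1.5 times as follows. With 21 libraries they were 502 for LPS 48 h (from 1414), 0 for DMM against control (from 38), 1 for DMM against succinate (from 15), 456 for DMM then LPS 4 h (from 956), 8 for succinate then LPS 4 h (from 70), 6 for succinate then LPS 48 h (from 38), 10 for DMM then LPS 48 h against 4 h (from 80) and 97 for the interaction (from 370). No filter gave 121 for DMM against control, 65 for DMM against succinate, 107 for DMM then LPS 48 h (from 55), 72 for succinate then LPS 48 h and 145 for DMM then LPS 48 h against 4 h. Odd and even groups gave 94, 69, 171, 99 and 217 for these comparisons, and 131 for succinate then LPS 4 h. DESeq2 gave 108 for DMM then LPS 48 h and 128 for it against 4 h, and the replicate block 30 and, for succinate then LPS 48 h, 13. For succinate alone (0) DESeq2 and odd and even groups gave 2, no filter 6 and no composition factor 1.

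Without the composition factor, members split 3 higher and 22 lower for LPS 48 h and 5 and 15 for DMM then LPS 48 h against DMM; all genes split 523 and 1002, and 657 and 1341. Depth limits Ctsk, Tfeb and Atp6v0d2.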
